A study of Mus musculus with 2 samples.

Results

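The nuclear genes for the subunits of respiratory complexes II, III, IV and V, together with cytochrome c, were examined by RNA-seq in hearts of mouse embryos at day 15.5. Members were chosen by symbol alone, as protein-coding genes named Sdha to Sdhd, Uqcr, Cox4 to Cox8 or Atp5, plus Cyc1 and Cycs, in GENCODE M21. This gave 49 genes of 21474 protein-coding genes in the files. 1 further annotated gene named Atp5o, which overlaps the member Atp5o on chromosome 16, was not analysed here. Of the 49 genes, 4 encode complex II, 9 complex III, 1 cytochrome c, 17 complex IV and 16 complex V. The remaining 2, Cox7a2l and Atp5s, carry a subunit-like name but are treated here as associated factors.

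The series holds 1 group of 2 libraries, with no treatment, genotype contrast or second age. Both were made from whole hearts of healthy B6NCrl embryos of mixed sex, pooled from 78 embryos for replicate 1 and from 62 for replicate 2. A whole heart holds muscle, endothelial, connective tissue and blood cells, so a lower level of a gene cannot be told apart from fewer cells of a type. All 12 cardiomyocyte markers checked reached 1 TPM in each library, with a median of 909 TPM in replicate 1 and 835 TPM in replicate 2. TPM, a unit of relative transcript abundance, is an estimated read count divided by transcript length and scaled to the same total in every library, so levels of different genes can be compared. Reads assigned to Ensembl genes numbered 41221435 in replicate 1 and 38457396 in replicate 2. Spike-in RNA took 1.58% and 3.12% of all counts. With 2 pools, an exact two-sided sign-flip test cannot go below p = 0.5, so no difference below carries a call. Each is given by library and read against the spread of the 2 pools.

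The respiratory chain passes electrons from nutrients to oxygen across the inner mitochondrial membrane and stores the energy as a proton gradient. Complex II, succinate dehydrogenase, feeds electrons from the citric acid cycle into ubiquinone. Complex III passes them to cytochrome c, complex IV (cytochrome c oxidase) hands them to oxygen, and complex V (ATP synthase) uses the gradient to make ATP. Complexes III, IV and V mix nuclear subunits with subunits of the mitochondrial genome, whereas complex II is wholly nuclear. Several small subunits of complex IV exist as a form of contractile muscle and a form found in liver and most other tissues. Heart muscle is known for a very high mitochondrial content.

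Sequences upstream of 4 members are shown because they set the window of a ubiquitous form beside that of a muscle form, and because Cycs and Cox6a1 hold a match to the NRF1 motif, named for a factor known to act on respiratory genes. They come from RefSeq on GRCm38.p6, run up to the annotated start of transcription and are written 5′ to 3′ on the minus strand, the strand of each of these genes. Capitals mark motif matches on either strand, GCGCATGC for NRF1 in Cycs and Cox6a1 and the E-box CANNTG, bound by muscle and other helix-loop-helix factors, in Cox8a and Cox8b. The Cycs window is chr6:50566570-50566819, that of Cox6a1 chr5:115348982-115349208, that of Cox8a chr19:7217617-7217866 and that of Cox8b chr7:140900447-140900696. Only 227 bases are printed for Cox6a1, which end before its RefSeq start, where the GENCODE gene begins.
Cycs: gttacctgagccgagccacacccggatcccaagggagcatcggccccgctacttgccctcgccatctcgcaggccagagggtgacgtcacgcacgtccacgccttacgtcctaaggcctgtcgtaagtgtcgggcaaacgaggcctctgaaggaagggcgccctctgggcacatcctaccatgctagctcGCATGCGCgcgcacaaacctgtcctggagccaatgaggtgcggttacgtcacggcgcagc
Cox6a1: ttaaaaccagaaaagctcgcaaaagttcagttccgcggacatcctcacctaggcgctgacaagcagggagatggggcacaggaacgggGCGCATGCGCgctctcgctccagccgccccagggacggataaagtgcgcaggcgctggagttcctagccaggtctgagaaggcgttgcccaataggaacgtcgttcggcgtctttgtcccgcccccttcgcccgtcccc
Cox8a: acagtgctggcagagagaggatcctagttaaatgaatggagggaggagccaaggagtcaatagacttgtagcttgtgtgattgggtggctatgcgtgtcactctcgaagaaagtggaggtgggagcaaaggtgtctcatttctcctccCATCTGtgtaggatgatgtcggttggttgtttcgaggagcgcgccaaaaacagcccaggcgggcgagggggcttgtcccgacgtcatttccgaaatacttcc
Cox8b: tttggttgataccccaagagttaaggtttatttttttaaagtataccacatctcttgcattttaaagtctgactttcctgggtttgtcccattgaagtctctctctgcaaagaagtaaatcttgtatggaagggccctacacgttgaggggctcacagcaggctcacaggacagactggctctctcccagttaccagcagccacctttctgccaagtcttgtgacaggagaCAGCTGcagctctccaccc

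Of the 49 members, 35 had an entry with such a window of 250 bases. NRF1 letters were present in 6 of them (17.1%, in Atp5g2, Atp5k, Atp5l, Cox6a1, Cycs and Sdhb), against 2.32% of all 27025 gene windows. In Cox6a1, 2 overlapping matches lay 162 to 153 bases before the start, and in Cycs 1 match lay 60 to 53 bases before it. The ETS core CCGGAAG, bound by factors such as GABP, was found in 8 of 35 windows (22.9%), against 7.05% of all windows. ERR letters (AAGGTCA) were in 2 of 35 windows (5.71%, all windows 4.05%) and the E-box in 22 (62.9%, all windows 66.0%), among them Cox8a at 102 to 97 and Cox8b at 19 to 14 bases before the start. The MEF2 motif was in 0 of 35 windows (all windows 3.01%) and TATAAA in 2 (5.71%, all windows 13.0%). In Cox8b the letters TATAAA stood just past the window, 5 bases after the annotated start. The Cox8a window held 52.8% G and C, that of Cox8b 47.2%, that of Cycs 64.0% and the printed part of Cox6a1 62.1%. These matches describe letters in a window and were not linked to the levels below.

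Most of these genes were abundant in the heart. At a level of 100 TPM or more in both libraries stood 44 of 49 members, compared with 5.5% of all protein-coding genes. The 5 below that level were Atp5s and 4 paralogues of complex IV. Together the members took 5.28% of all TPM in replicate 1 and 4.07% in replicate 2. The median protein-coding gene stood at 3.03 and 4.11 TPM in the same libraries. For 36 subunit genes of complex I, the other large nuclear set of the chain, 35 stood at 100 TPM or more in both, with medians of 488 and 399 TPM.

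**Figure D1:**
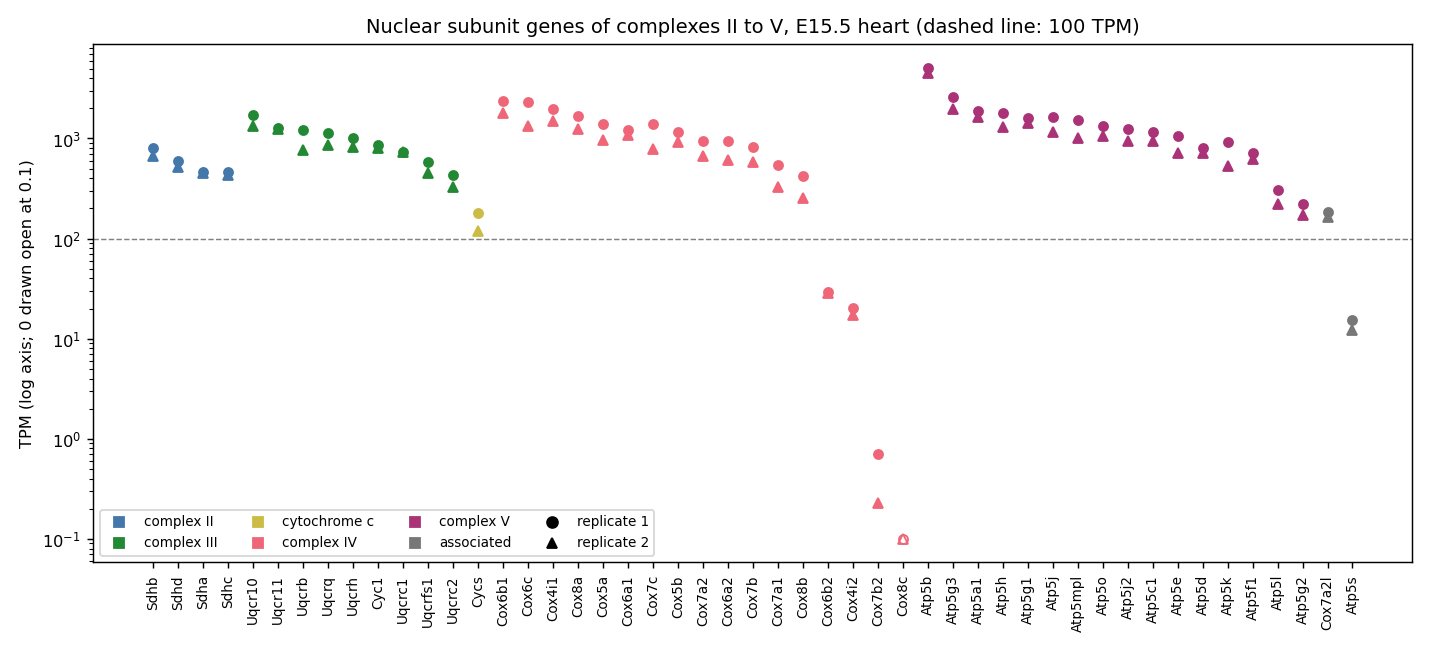
TPM (log axis) of each of the 49 members in replicate 1 (circles) and replicate 2 (triangles), coloured by complex and ordered by mean TPM within it. Atp5b stood highest at 5111 and 4510 TPM, 4 complex IV paralogues lay far below the dashed line at 100 TPM, and Cox8c was listed at 0.

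Complex II had the lowest median of the 4 complexes and the least spread among its members. The median over its 4 genes was 509 ± 29.2 TPM (SD, n = 2). Sdhb, the iron-sulphur subunit, was highest at 799 TPM in replicate 1 and 668 TPM in replicate 2. Sdhd, a membrane anchor, stood at 594 and 522 TPM. The flavoprotein Sdha, which oxidises succinate, stood at 465 and 454 TPM, and the anchor Sdhc at 462 and 429 TPM. Sdhb exceeded the other 3 in each library. Sdha was above Sdhc in each library too, but by less than the SD of Sdhc between pools (23.0 TPM) on average, so their order is not clear of the spread.

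Complex III had a median of 904 ± 144 TPM over 9 genes, and all 9 passed 100 TPM in both libraries. The small subunit gene Uqcr10 was highest at 1721 and 1323 TPM, followed by Uqcr11 at 1271 and 1233 TPM. Between these and the core stood Uqcrb (mean 996 TPM), Uqcrq (988 TPM) and the hinge protein gene Uqcrh (914 TPM). Of the genes that carry the redox centres, Cyc1, cytochrome c1, stood at 856 and 802 TPM. Uqcrfs1, the Rieske iron-sulphur protein, stood at 585 and 457 TPM. The core proteins Uqcrc1 and Uqcrc2 differed from each other, with 733 and 731 TPM for the first and 430 and 325 TPM for the second, which was lowest in the complex. In both libraries the 5 small subunits thus stood above Uqcrfs1, Uqcrc1 and Uqcrc2.

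Cycs, the mobile carrier cytochrome c (chromosome 6, 50562563 to 50566538 on mm10), was far below its partners. It reached 180 TPM in replicate 1 and 119 TPM in replicate 2, and Cyc1 exceeded it 5.65-fold on average (log2 ratio of Cycs over Cyc1 -2.50 ± 0.35, SD, n = 2). Cycs has the longest effective transcript length of the 49 genes, at 2909 bases, and TPM divides by that length. By counts, which do not, Cycs held 17087 and 10013 reads and Cyc1 30419 and 25468. The authors' posterior SD of its count, which is above 0 where reads fit more than 1 feature, was 0.528% and 0.678% of the count. Its testis counterpart Cyct held 5 and 3 counts.

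Complex IV spanned the widest range in fold, from 2 genes above 2000 TPM in replicate 1 to a gene with 0 counts. Its median over 17 genes was 806 ± 198 TPM. Cox6b1 was highest at 2391 and 1780 TPM, followed by Cox6c (2316 and 1324 TPM) and Cox4i1 (1960 and 1507 TPM), the ubiquitous form of a subunit that contacts the catalytic core. The remaining subunits without a tissue form were Cox5a (mean 1184 TPM), Cox7c (1088 TPM) and Cox5b (1040 TPM). Among these, Cox6c and Cox7c had the largest spread between the pools, with SD of 701 and 434 TPM.

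Of the 3 subunits with a heart or muscle form, the liver or ubiquitous form was ahead in both libraries each time, by different margins. Cox6a2, the muscle form of subunit VIa (chromosome 7, 128205435 to 128206387), stood at 946 and 614 TPM against 1225 and 1091 TPM for Cox6a1 (chromosome 5, 115345642 to 115348981). The log2 ratio of muscle over ubiquitous form was -0.37 in replicate 1 (exact 95% interval -0.40 to -0.34) and -0.83 in replicate 2 (-0.87 to -0.79), with a mean of -0.60 ± 0.32 (SD). The 2 pools therefore differed by more than their counting error, and the muscle form made up 43.6% of Cox6a TPM in the first and 36.0% in the second.

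Cox7a1 (chromosome 7, 30184144 to 30186078), the muscle form of subunit VIIa, stood at 545 and 331 TPM and Cox7a2 (chromosome 9, 79755361 to 79759878) at 942 and 665 TPM. Their log2 ratio was -0.79 (interval -0.84 to -0.74) and -1.01 (-1.07 to -0.95), with a mean of -0.90 ± 0.16. Cox7a1 thus held 34.9 ± 2.45% of the pair. For subunit VIII, Cox8b (chromosome 7, 140898945 to 140900446) stood at 425 and 253 TPM and Cox8a (chromosome 19, 7215153 to 7217616) at 1694 and 1253 TPM. The log2 ratio was -2.00 (-2.05 to -1.95) and -2.30 (-2.37 to -2.24), with a mean of -2.15 ± 0.22 and a muscle share of 18.4 ± 2.27%. The muscle form was thus most present in Cox6a and least in Cox8, an order that held in each library. In all 3 pairs the muscle share was smaller in replicate 2.

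**Figure D2:**
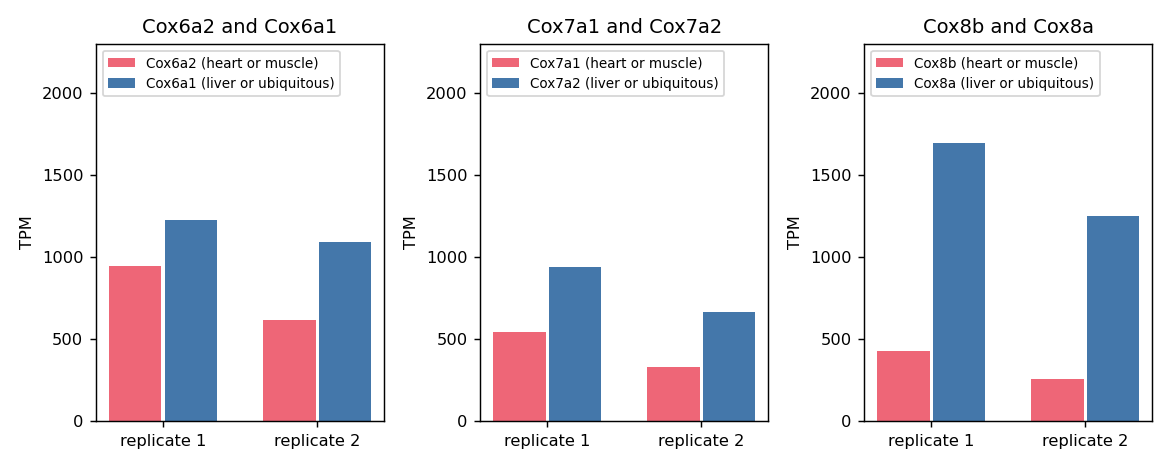
TPM (linear axis from 0) of the heart or muscle form (red) and the liver or ubiquitous form (blue) of 3 complex IV subunits in each library, 1 bar per gene and library, with no error bar since each is a single value. Blue exceeds red in all 6 comparisons, most for Cox8b against Cox8a (253 against 1253 TPM in replicate 2).

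Cell type markers also differed between the pools. Of the 12 cardiomyocyte markers, 3 were more than 1.5-fold lower in replicate 2 on edgeR's TMM scale, against 3.03% of all protein-coding genes, with a median log2 ratio of -0.44. Their summed TPM was 28834 in replicate 1 and 23248 in replicate 2. Markers of neighbouring organs were higher in replicate 2. Summed TPM was 59.2 and 261 for 10 liver markers (6 at 1 TPM or more in both), 16.5 and 169 for 10 thymus markers (4) and 133 and 336 for 8 lung epithelium markers (6). For 8 erythroid markers, mostly globins, it was 121664 and 116782. Cox7a1 and Cox8b have effective lengths of 265 and 263 bases, against 655 and 446 bases for Cox7a2 and Cox8a, while Cox6a2 (559 bases) is longer than Cox6a1 (472 bases). By counts not divided by length, the mean log2 ratio was -2.20 for Cox7a1 over Cox7a2 and -2.91 for Cox8b over Cox8a. The part of the markers in the shares was not tested. Brown fat also uses Cox7a1 and Cox8b, and there the defining marker Ucp1 was at 1 and 0 counts, with 1 of 6 fat markers (Cidea, 9.66 and 6.93 TPM) at 1 TPM or more and a summed TPM of 10.7 and 7.73. Of 12 skeletal muscle markers, 7 reached 1 TPM in both libraries, and Pax7 was at 0 counts. The summed TPM of the 12 was 187 and 188, most of it from Acta1 at 152 and 147 TPM. A TMM ratio was taken for 10 of them, with a median of 0.17 in log2. Of these, Myh3 (0.82) and Myog (0.76) were more than 1.5-fold higher in replicate 2, against 11.4% of all protein-coding genes. More than 1.5-fold lower were 0, though Tnnt3, Tnnc2, Tnni2 and Acta1 lay below 0, from -0.28 to -0.15.

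Paralogues tied to other tissues were low or undetected. Cox4i2, the lung form of subunit IV, stood at 20.1 and 17.1 TPM, which was 1.07 ± 0.078% of Cox4i TPM. The testis form Cox6b2 stood at 29.5 and 28.8 TPM, or 1.40 ± 0.26% of Cox6b TPM. Cox7b2, also known from testis, held 10 counts in replicate 1 and 3 in replicate 2 (0.70 and 0.23 TPM), against 828 and 578 TPM for Cox7b. Cox8c had 0 counts in both, which allows up to 0.245 TPM in replicate 1 and 0.274 TPM in replicate 2 (3 counts per library). Of 8 testis germ cell markers, 0 reached 1 TPM in both libraries, and their summed TPM was 0.56 and 0.39.

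Complex V had the highest median, 1129 ± 225 TPM over 16 genes, and the highest single gene. Atp5b, the catalytic beta subunit (chromosome 10, 128083273 to 128090391), reached 5111 and 4510 TPM and held rank 10 among protein-coding genes in each library. Atp5a1, the alpha subunit that alternates with beta in the F1 head, stood at 1875 and 1628 TPM. The log2 ratio of Atp5b over Atp5a1 was 1.46 ± 0.02, almost the same in both pools. Counting only protein-coding transcripts, the margin was smaller, with 3518 and 3166 TPM for Atp5b and 1664 and 1475 TPM for Atp5a1. Of the stalk subunits that turn inside the head, Atp5c1 (gamma) had a mean of 1048 TPM, Atp5e (epsilon) 890 TPM and Atp5d (delta) 753 TPM. The peripheral stalk, which holds the head still, ran from Atp5f1 (666 TPM) over Atp5o (1194 TPM) and Atp5j (1394 TPM) to Atp5h (1546 TPM). In protein-coding transcripts alone the order differs, since Atp5j then stood at 379 and 310 TPM and Atp5f1 at 212 and 192 TPM, both below Atp5o.

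The membrane rotor is a ring of subunit c, which Atp5g1, Atp5g2 and Atp5g3 encode with different import signals. Summed over the 3 genes, it reached 3989 ± 613 TPM. Atp5g3 led with 2584 and 1971 TPM, or 56.9 ± 2.11% of the sum. Atp5g1 followed with 1619 and 1412 TPM (38.2 ± 2.19%) and Atp5g2 with 220 and 172 TPM (4.91 ± 0.080%), the lowest member of the complex. The order was the same in both libraries. The posterior SD of the count was 2.60% and 3.15% for Atp5g2, 0.706% and 0.859% for Atp5g1 and 0% for Atp5g3. The small membrane subunits were Atp5mpl (mean 1257 TPM), Atp5j2 (1094 TPM), Atp5k (725 TPM) and Atp5l (264 TPM). For Atp5l the posterior SD of the count, 3.10% and 3.88%, was the largest of all members. In 47 of 49 members it was under 1% in both libraries. The 7 pseudogenes in the files that are named after members held at most 86.4 counts each.

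The associated genes were lower. Cox7a2l, known as a factor for joining complexes III and IV into supercomplexes, stood at 183 and 163 TPM, and Atp5s at 15.3 and 12.1 TPM. Whether Cox7a2l acts in this way in the B6NCrl strain was not tested.

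Transcript files divide each gene into annotated forms, with the authors' deposited percent of the gene's TPM in each. For Atp5c1 the 2 leading forms differ in a 37-base exon (chromosome 2, 10056770 to 10056806) that holds the last coding bases where it is present. Their lengths, 1060 and 1166 bases, differ by more than that exon, so the shares may not rest on it alone. The form without the exon has 9 exons and 297 codons and matches what is known as the heart or muscle form of the gamma subunit. That form held 87.7% in replicate 1 and 83.8% in replicate 2. The form with the exon, with 298 codons, is the one known from liver and held 11.3% and 15.1%. The muscle form of Atp5c1 was therefore dominant in both pools, in contrast to the muscle paralogues of Cox6a, Cox7a and Cox8, and here too its share was lower in replicate 2.

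In 6 members at least 2 protein-coding forms each held 10% or more in both libraries, namely Atp5c1, Atp5g3, Atp5h, Atp5j2, Cox6b2 and Sdhc. The 2 forms of Atp5g3 (77.8 ± 0.778% and 20.5 ± 1.22%) share a coding length of 423 bases, as those of Atp5h (69.1 ± 1.70% and 26.8 ± 1.34%) share 483 bases. For Atp5j2 the shorter coding form (228 bases) held 86.2 ± 0.82% and the longer (264 bases) 12.8 ± 1.13%. The leading form of Sdhc, with 405 coding bases, held 69.8 ± 0.686% of Sdhc. Forms with 98 and 507 coding bases held 19.2 ± 1.47% and 11.1 ± 0.785%. Cox6b2 divided into several forms, of which the first held 33.4 ± 4.94%.

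In 3 members the leading form was not annotated as protein-coding. A nonsense-mediated decay form, from a class of mRNA that cells degrade, took 68.0 ± 1.31% of Atp5f1. A retained intron form took 72.6 ± 3.03% of Atp5j and a processed transcript 59.8 ± 2.40% of Cox5b. These levels by gene are therefore uncertain as levels of coding mRNA. Protein-coding forms alone gave Atp5j 23.2% and 26.9% of its TPM, Atp5f1 29.7% and 31.2%, Cox7b 53.4% and 48.3% and Atp5b 68.8% and 70.2%. The leading coding form of Cox5b held 35.3% and 38.7%. In 39 of 49 members they took 90% or more in both libraries.

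**Figure D3:**
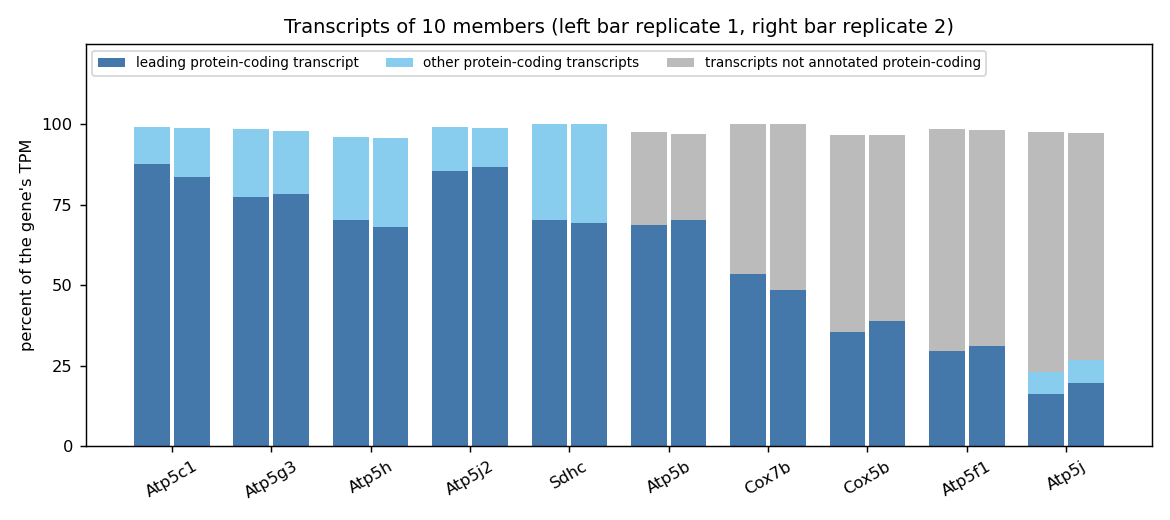
Percent of a gene's TPM (linear axis) in the leading protein-coding transcript, in other protein-coding transcripts and in transcripts of other annotation for 10 members, replicate 1 left and replicate 2 right, leaving out transcripts under 2% in both. The first 5 genes are divided among coding forms, as in Atp5c1 (87.7% and 83.8% in 1 form), and the last 5 hold a large part in forms of other annotation, up to 74.7% in 1 form of Atp5j.

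Between the 2 pools, counts were compared after edgeR's TMM scaling, which sets the bulk of genes equal, over the 47 members with at least 10 counts in each library. The comparison has 1 pool on each side and so no replicate check. Of 47 members 24 were more than 1.5-fold lower in replicate 2, against 3.03% of all protein-coding genes, and 0 were more than 1.5-fold higher, against 11.4%. The median log2 ratio of replicate 2 over replicate 1 was -0.59 over the members and -0.01 over all 14711 genes, and all 47 members lay below 0. Under each of the other scalings (DESeq2 size factors, total counts, spike-ins and deposited TPM) all 47 also lay below 0. The count past 1.5-fold depended on the scaling, with 12 members after total counts (1.35% of all genes), 9 by deposited TPM (0.924%) and 47 after spike-ins (76.7%), where the median of all genes itself was -0.84.

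Cox7c was farthest apart, with 18807 counts in replicate 1 and 9093 in replicate 2 (log2 ratio -1.12). It was followed by Atp5k, a small membrane subunit of complex V, with 8204 and 4158 counts (-1.05), and by Cox6c with 30982 and 15987 counts (-1.03). Closest together were Uqcrc1 with 36677 and 32611 counts (-0.24), Cox6b2 with 385 and 339 counts (-0.26) and Sdha with 39987 and 35167 counts (-0.26). By deposited TPM these 3 hardly differed between the pools, with -0.004, -0.04 and -0.04. The 3 muscle forms lay near the far end, with -0.86 for Cox6a2, -0.96 for Cox7a1 and -0.98 for Cox8b. Their ubiquitous partners stood at -0.40 for Cox6a1, -0.74 for Cox7a2 and -0.67 for Cox8a. Cox7a1 and Cox8b are among the 4 members with an effective length under 300 bases, whose median was -0.97. Cox6a2 is among the 20 members of 300 to 600 bases, whose median was -0.67. By complex, the median was -0.41 for complex II (0 of 4 past 1.5-fold), -0.57 for complex III (4 of 9), -0.74 for complex IV (11 of 15 with enough counts) and -0.60 for complex V (8 of 16), while Cycs stood at -0.84. For complex I subunits it was -0.53, with 13 of 36 past 1.5-fold. The share of all protein-coding genes past 1.5-fold was 3.03%. Median effective length differed too, at 1115 bases for complex II, 443 for complex III, 455 for complex IV, 564 for complex V and 587 for complex I. The part of length in these differences between complexes was not tested.

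The ratio also followed transcript length. Among members with an effective length under 600 bases, 18 of 24 were more than 1.5-fold lower, against 25.6% of all protein-coding genes of that length. At 600 bases or more, 6 of 23 were, against 2.37%. The median log2 ratio of members was -0.97 below 300 bases (4 members), -0.67 from 300 to 600 bases (20), -0.57 from 600 to 1000 bases (11), -0.45 from 1000 to 2000 bases (9) and -0.42 above (3). The same medians over all protein-coding genes were -0.40, -0.36, -0.18, -0.04 and 0.03. Over genes with a mean of 100 TPM or more across the 2 libraries, a level that most members reach, they were lower. They stood at -0.67, -0.47, -0.28, -0.18 and -0.16. The median of the members was below both in each length range, by less against the abundant genes. Within complex V the order of the ratios nearly followed that of the lengths, with a Spearman rho of 0.91 and a Pearson r of 0.84 over its 16 genes. The relation was weaker in complex IV (rho 0.24, r 0.33, 15 genes) and complex III (rho 0.35, r 0.34, 9 genes). The 4 genes of complex II gave a rho of 0.40 and an r of 0.86. Over all 47 members rho was 0.52 and r 0.50, across genes that share the same 2 libraries. Over all 14711 protein-coding genes rho was 0.20 and r 0.13. The part of length, and of the marker differences given above, in the lower level of these genes was not tested.

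**Figure D4:**
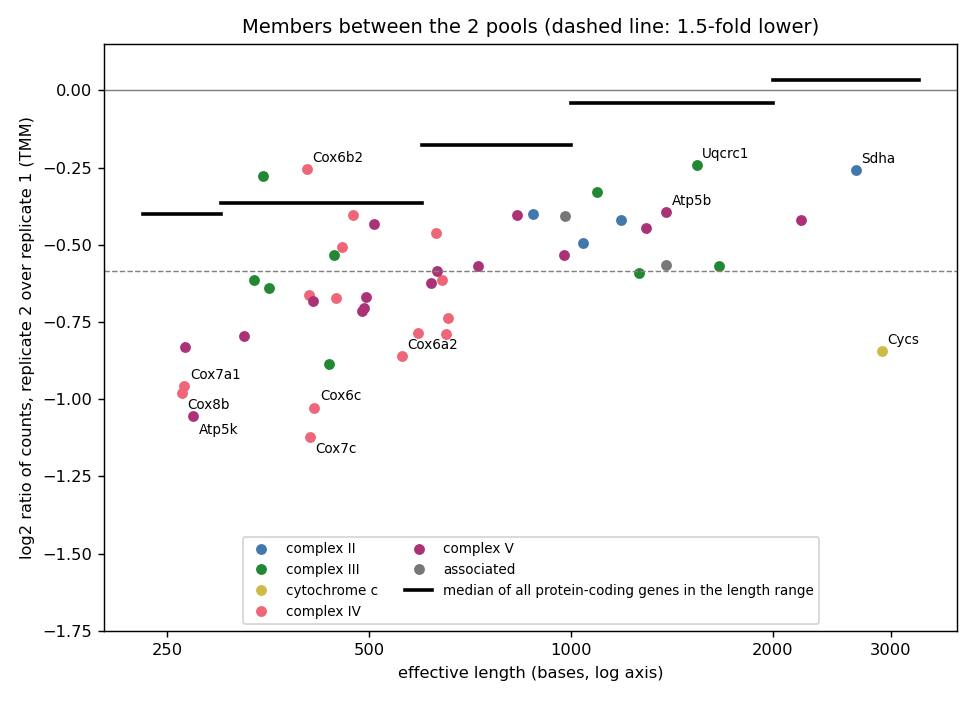
Log2 ratio of counts, replicate 2 over replicate 1 on the TMM scale, against effective length (log axis) for the 47 members with at least 10 counts in both libraries, 1 point per gene coloured by complex. All points lie below 0, from Uqcrc1 at -0.24 to Cox7c at -1.12, and the black bars give the median of all protein-coding genes in each length range.

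Other genes of the pathway were taken from fixed lists. The median assembly factor stood far below the median subunit of its complex, though each of the 38 listed reached 1 TPM in both libraries. Single factors overlapped with low subunits, as Fmc1 (242 and 178 TPM) exceeded Atp5g2. The 24 factors of complex IV had a median of 37.5 TPM in replicate 1 and 32.8 TPM in replicate 2, from Pet117 (mean 1.86 TPM) to the copper chaperone Cox17 (237 TPM). Those of complex III (6 genes, 35.2 and 31.0 TPM) were led by Uqcc2 at 222 TPM. For complex V (4 genes, 69.8 and 63.8 TPM) the highest was Fmc1 at 210 TPM, and for complex II (4 genes, 16.2 and 15.8 TPM) Sdhaf4 at 54.6 TPM. More than 1.5-fold lower in replicate 2 were 7 of 24, 0 of 6, 1 of 4 and 1 of 4 of these, against 3.03% of all protein-coding genes. That share was 25.6% under 600 bases of effective length and 2.37% at 600 bases or more. Most of these factors have 600 bases or more, and those past 1.5-fold lie on both sides of that bound. More than 1.5-fold higher were 0, against 11.4% of all genes.

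Proteins that bind or tune the finished complexes were nearer to the subunits. Over 8 genes, among them the member Cox7a2l, the medians were 326 and 274 TPM. Ndufa4, now counted as a subunit of complex IV, was highest at 1479 and 1136 TPM. Atpif1, the inhibitor of ATP synthase running in reverse, stood at 1226 and 964 TPM, and Ndufa4l2, the hypoxia-linked relative of Ndufa4, was lowest at 37.4 and 37.9 TPM. Of the 8 genes, 2 were more than 1.5-fold lower in replicate 2, against 3.03% of all protein-coding genes. Both have an effective length under 600 bases, where the share of all protein-coding genes was 25.6%.

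The 6 genes that the mitochondrial genome contributes to complexes III to V had medians of 4753 and 3951 TPM, above the median of any nuclear complex. The highest was mt-Atp6 at 12394 and 9431 TPM and the lowest by mean mt-Co3 at 3386 and 1304 TPM. Reads of mitochondrial genes can be shared with near-identical nuclear copies, which was not tested. Of the 6 genes, 4 were more than 1.5-fold lower in replicate 2, against 3.03% of all protein-coding genes. That share was 25.6% under 600 bases of effective length and 2.37% at 600 bases or more, and the 4 lie on both sides of that bound. The 6 mitochondrial genes had a median log2 ratio of -0.73, so nuclear and mitochondrial subunits were lower in the same pool.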

How the data were processed

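Per the labels' protocols, RNA longer than 200 nt (10 ng per library) was taken from pooled hearts. Per the file headers, the authors used mm10 and GENCODE M4. The quantifier was not given in the sources used here. Use of strand was not stated either, which leaves overlapping and antisense genes uncertain. The deposited expected counts are estimated reads, not normalized. The deposited TPM are per effective length and include spike-ins, and a deposited posterior mean TPM and a posterior SD of the count, used as a score of assignment error, stand beside them. The authors' deposited percent gives each transcript's share of its gene's TPM.

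Of 43346 Ensembl genes, 42462 matched GENCODE M21 by identifier. Pair ratios used log2(TPM + 0.1). Counts, rounded to whole numbers, were scaled with edgeR 4.0.16 (TMM) or DESeq2 1.42.0 size factors in R 4.3.3. The TMM step was tried on simulated counts with equal numbers of genes raised and lowered and no effect of length. These libraries differ from that setting, so the trial does not show how TMM acts on them. Intervals are exact 95% and cover counting error only. Members and lists were chosen with earlier results of these data known. Named are the highest and lowest gene of each complex or list, all paralogue sets, and the 3 members at each end of the ratio between libraries, with other members by mean. Atpif1 and the values of Atp5b and Cox7b forms were chosen after their values were seen. Proteins were not printed, and the Cox7a and Cox6a2 windows were left out.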

Additional observations from a re-analysis of the deposited data

How the results depend on the processing

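The ratios of the 3 muscle and ubiquitous pairs kept their sign under every alternative tried. Without division by length, the log2 ratio moved to -2.20 for Cox7a1 over Cox7a2 and to -2.91 for Cox8b over Cox8a. From single libraries the ratios ran from -0.83 to -0.37 for Cox6a2 over Cox6a1, from -1.01 to -0.79 for Cox7a1 over Cox7a2 and from -2.30 to -2.00 for Cox8b over Cox8a. Single libraries gave medians of 488 to 529 TPM for complex II, 802 to 1006 for complex III, 665 to 946 for complex IV and 970 to 1288 for complex V, and 44 members at 100 TPM. With TPM rescaled over nuclear protein-coding genes, the medians were 629 TPM for complex II, 1117 for complex III, 996 for complex IV and 1395 for complex V. With only subunits at 1 TPM or more in both libraries, the complex IV median was 970 TPM in place of 806. It then stood above the 904 TPM of complex III. The count of members more than 1.5-fold lower in replicate 2 was 24 with TMM (all genes 3.03%) and 12 with total counts (1.35%). It was 47 with spike-ins (76.7%) and 9 with deposited TPM (0.924%). Past 2-fold with TMM it was 3, and no share of all genes was taken at that bound. The median log2 ratio was -0.58 with DESeq2 size factors, -0.42 with total counts, -1.43 with spike-ins, -0.60 with no filter on low counts and -0.38 with deposited TPM. The median of all protein-coding genes moved with it, to 0.17 with total counts, -0.84 with spike-ins and 0.22 with deposited TPM, since a size factor shifts every gene alike. The count of 44 members at 100 TPM was also 44 with protein-coding transcripts only, an alternative chosen after seeing the data. By total counts and by deposited TPM, the ratio between libraries was -0.07 and -0.004 for Uqcrc1, -0.09 and -0.04 for Sdha and -0.08 and -0.04 for Cox6b2. With 2 libraries, a median or ratio from 1 of them lies within the SD by construction. No paired analysis was possible because there is 1 group. Depth limits only Cox7b2 and Cox8c, at or near the floor.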
